A study of Nasonia vitripennis with 140 samples.

Results

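Acox3 and Acads are 2 of the 15471 genes counted in the parasitoid wasp Nasonia vitripennis, in which unfertilised eggs become haploid males and fertilised eggs diploid females. The pair was chosen by name as genes of fatty acyl oxidation, and its sex difference by body part and its difference in males given doublesex (dsx) double-stranded RNA were known when it was chosen. Those 2 contrasts are therefore given for Acox3 and Acads as a description, with no test. The contrast that did not enter the choice, dsx-labelled against control females, was tested.

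Acox3 encodes an acyl-CoA oxidase, the enzyme class that opens beta-oxidation in peroxisomes and passes electrons to oxygen, forming hydrogen peroxide. Acads encodes the short-chain acyl-CoA dehydrogenase, which catalyses the corresponding first step on short chains in mitochondria and feeds electrons towards the respiratory chain. In insects, fat is stored in the fat body, which fills much of the abdomen, and the hydrocarbons and many pheromones of the body surface and glands are made from fatty acids. Males of Nasonia vitripennis make a fatty acid-derived sex pheromone in the abdomen and also court with secretions of the head.

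All wasps were of the laboratory strain AsymCX, reared on Calliphora hosts, and all injected animals received dsRNA at 4 µg/µl, either against dsx, a transcription factor gene of sexual differentiation, or against green fluorescent protein (GFP) as the control. Both sexes and both dsRNAs were sampled at 7 stages or body parts, in 28 groups of 5 libraries and 140 libraries in all. Larvae injected on day 4 or day 6 and pupae injected on day 8 were collected 3 days later, on day 7, day 9 and day 11, with 3 individuals pooled in each sample. Heads, thoraces and abdomens came from adults that had been injected as pupae of day 8 and were dissected a day after emergence. Embryos were not injected themselves: batches of 100 were laid by females that had themselves received the dsRNA as pupae of day 8. Embryos of unmated mothers are the male groups, and mated mothers had broods that were 90 to 95% female, so the groups labelled female embryos hold some males.

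Total counts ran from 59.2 M to 113 M per library, with a median of 74.8 M. Dsx, the targeted gene, was not called lower in any dsx-labelled group by edgeR's quasi-likelihood test at an adjusted p below 0.05, the threshold for every call here. In males it was called higher in dsx-labelled larvae of day 7 and day 9, pupae and abdomens, with log2 fold changes between 0.27 (abdomens) and 1.32 (pupae), so the groups are called dsx-labelled throughout. Eye genes (Lop1 and white) summed to between 2696 and 7189 CPM (a gene's counts relative to the scaled library total) in heads and to at most 11.9 CPM in thoraces and abdomens. Germ line genes (oskar and nanos) summed to between 441 and 539 CPM in female abdomens and to at most 1.64 CPM in GFP male abdomens. Some libraries stood apart from their group in these sums. The germ line genes reached 98.1 CPM in GFP female embryo replicate 3 against at most 5.66 CPM in the other 4. They reached 40.5 CPM in dsx-labelled male abdomen replicate 4 against at most 1.00 CPM in the other 4. In thoraces they reached 44.4 CPM in GFP female replicate 2 and 27.4 CPM in dsx-labelled female replicate 4. Eye genes reached 11.9 CPM in GFP female thorax replicate 5 and 9.02 CPM in GFP female abdomen replicate 4. Earlier results of these data set apart 3 male heads over all genes, GFP replicates 1 and 2 and dsx-labelled replicate 1, and results that rest on male heads are given with and without them.

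Acox3 was lowest in embryos and highest in adult males, while Acads was lowest in embryos and highest in GFP male abdomens, followed by female larvae. On a scale common to all 140 libraries, Acox3 averaged 169 ± 27.5 CPM (SD, n = 5) in dsx-labelled male heads, 155 ± 16.4 CPM in GFP male abdomens, 129 ± 13.4 CPM in dsx-labelled male abdomens. The 20 embryo libraries lay between 8.47 and 13.9 CPM. Ordered by mean, 24 neighbouring pairs of groups overlapped in their libraries and 3 did not. The first of the 3 gaps lay between GFP female thoraces and GFP male pupae. Dsx-labelled female thoraces, from 76.3 CPM, did overlap those pupae, which reached 76.4 CPM. The other gaps lay between larvae of day 7 and those of day 9, and between female abdomens (33.0 to 33.5 CPM) and embryos. The 8 highest groups were the male heads, the male abdomens and all thoraces.

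For Acads on the common scale, GFP male abdomens averaged 116 ± 15.2 CPM (SD, n = 5), GFP females of day 9 averaged 83.6 ± 8.25 CPM and GFP females of day 7 averaged 83.0 ± 2.71 CPM. Female heads were at 32.2 to 33.1 CPM and embryos at 3.56 to 4.42 CPM. Here 23 neighbouring pairs overlapped and 4 did not. CPM values are not scaled by gene length, so levels of Acox3 are not set against levels of Acads. The values that follow are CPM scaled within each stage or body part, and log2 fold changes come from the edgeR fit of that stage.

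**Figure D1:**
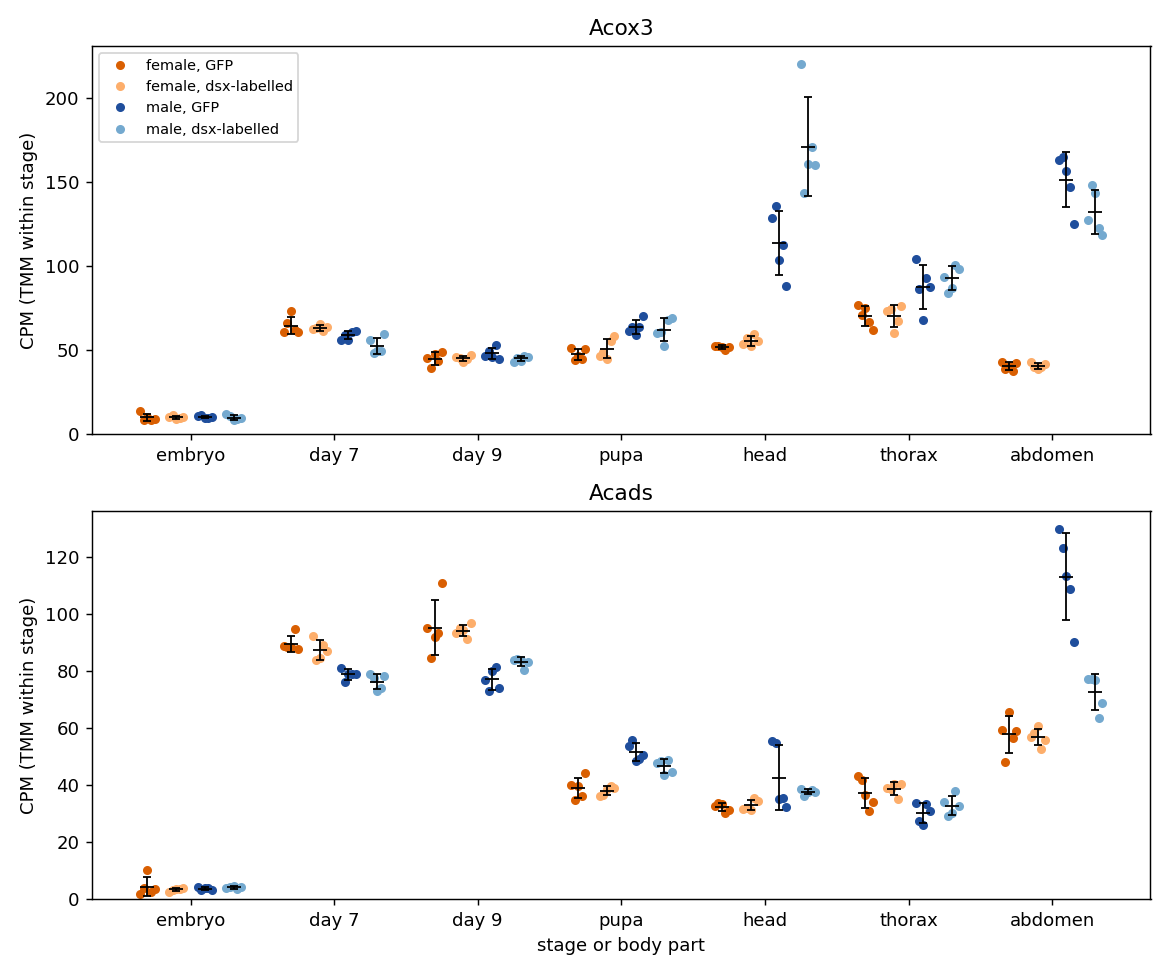
Acox3 (top) and Acads (bottom) in CPM in each of the 140 libraries, by stage or body part, with 1 point per library, a dash for the group mean and bars for 1 SD (n = 5). Male heads and male abdomens stand above the female ones for Acox3, and GFP male abdomens stand above all other abdomens for Acads.

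In abdomens, both genes were higher in males than in females, and with the dsx label Acads was lower in males. Acox3 read 42.9, 38.6, 40.6, 37.6 and 42.4 CPM in the 5 GFP female abdomens and 163, 165, 156, 147 and 125 CPM in the 5 GFP male abdomens. Every male library lay above every female one, and the log2 fold change of males over females was 1.90 (SE 0.08). The libraries of the sexes did not overlap for 78.6% of all genes tested in abdomens, so such a gap was usual there. Dsx-labelled male abdomens had Acox3 at 127, 148, 143, 122 and 119 CPM, overlapping the GFP males, with a log2 fold change of -0.20 (SE 0.07).

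Acads read 59.4, 48.1, 65.7, 56.6 and 59.0 CPM in GFP female abdomens and 130, 123, 113, 109 and 90.3 CPM in GFP male abdomens, a log2 fold change of 0.97 (SE 0.09) with no overlap. Of all genes tested in abdomens, 60.2% had a larger absolute sex difference than Acads and 31.4% a larger one than Acox3. In dsx-labelled male abdomens Acads read 77.3, 77.2, 77.0, 63.4 and 68.7 CPM. All 5 lay below the lowest GFP male, and the log2 fold change was -0.64 (SE 0.09). Libraries did not overlap for 25.3% of all genes in that contrast, and 39.3% of all genes were called by edgeR in either direction. The dsx-labelled male mean was 1.28 times the dsx-labelled female mean, against 1.96 times between the GFP sexes. The sex difference in GFP controls and the male label difference share the GFP male libraries. Without dsx-labelled male replicate 4, the library with germ line RNA, the difference was -0.59 for Acads and -0.17 for Acox3. Hexamerin genes of the larval fat body (Hex70b, Hex83 and Hex109) summed to between 11.2 and 22.2 CPM in the abdomens of GFP males, to between 2.49 and 4.06 CPM in those of dsx-labelled males, and in female controls to between 2.20 and 4.10 CPM. Muscle genes (Tm1, Tm2 and Zasp66) summed to between 1448 and 1553 CPM in the abdomens of GFP males and to between 864 and 1136 CPM in those of GFP females. The part of these hexamerin, germ line and muscle differences in the results for Acads and Acox3 was not tested. In bulk samples such as these, fewer cells of a type and less RNA per cell cannot be told apart.

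In heads, Acox3 was higher in males and higher again in dsx-labelled males. The 5 GFP female heads lay between 50.3 and 52.5 CPM. GFP male heads read 128, 136, 104, 113 and 88.0 CPM, and dsx-labelled male heads read 220, 143, 160, 171 and 160 CPM. None of the 3 groups overlapped another. The log2 fold change was 1.13 (SE 0.11) for GFP males over GFP females, where 26% of all genes had no overlap, and 0.59 (SE 0.11) for dsx-labelled over GFP males, where 6.23% had none. Without the 3 male heads set apart, these values were 0.97 and 0.65. Eye genes also separated the male groups, at 4285 to 7189 CPM in GFP and 3230 to 4231 CPM in dsx-labelled male heads. The part of this difference in the result for Acox3 was not tested. The dsx-labelled difference in male heads thus pointed away from the female level, whereas that of Acads in male abdomens pointed towards it.

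Acads in heads depended on the libraries set apart. GFP male heads read 55.3, 54.8, 35.3, 35.5 and 32.2 CPM, of which the first 2 are the GFP libraries set apart, against 30.3 to 33.7 CPM in GFP females. Dsx-labelled male heads lay between 36.3 and 38.5 CPM. The log2 fold change of GFP males over females was 0.40 (SE 0.12) with all libraries and 0.09 without the 3 heads, and that of dsx-labelled over GFP males turned from -0.18 (SE 0.12) to 0.13. The groups of males overlapped, as did GFP males and GFP females. In the 2 GFP male heads set apart, eye genes summed to 7189 and 5821 CPM against at most 4464 CPM in the other 3, and muscle genes to 1018 and 1000 CPM against at least 1790 CPM. The part of these differences in the values for Acads was not tested.

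In thoraces, the sexes overlapped for both genes. GFP male thoraces had Acox3 between 67.7 and 104 CPM against 61.8 to 76.8 CPM in GFP females, with overlap and a log2 fold change of 0.32 (SE 0.10). The sexes did not overlap for 23.2% of all genes in thoraces. Acads in thoraces went the other way, with a log2 fold change of -0.30 (SE 0.10) and overlap. The dsx-labelled differences in male thoraces were 0.08 (SE 0.10) for Acox3 and 0.11 (SE 0.10) for Acads. The libraries overlapped in both cases, and 9.34% of all genes had no overlap.

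In pupae, males were higher for both genes with no overlap between GFP libraries, a gap that 49.1% of all genes showed. Acox3 lay between 58.9 and 70.5 CPM in GFP males against 44.3 to 51.1 CPM in GFP females, a log2 fold change of 0.42 (SE 0.08). Acads lay between 48.6 and 55.8 CPM against 34.8 to 44.2 CPM, a log2 fold change of 0.40 (SE 0.06). Hexamerin genes summed to between 453 and 1517 CPM in GFP male pupae and to between 8.16 and 13.5 CPM in GFP female pupae, and eye genes to between 19.0 and 26.5 CPM against 62.5 to 122 CPM. Muscle genes summed to between 5568 and 7147 CPM in GFP male pupae and to between 8551 and 10257 CPM in GFP female pupae. The part of these differences in the pupal results was not tested. With the dsx label, male pupae differed by -0.03 (SE 0.08) for Acox3 and -0.14 (SE 0.06) for Acads, with overlap, where 3.93% of all genes had none.

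Larvae showed the opposite sex difference for Acads. GFP males of day 7 lay between 76.0 and 81.0 CPM against 87.6 to 94.6 CPM in GFP females, a log2 fold change of -0.18 (SE 0.03). At day 9 the values were 73.0 to 81.4 CPM against 84.6 to 111 CPM, a log2 fold change of -0.31 (SE 0.05). The sexes did not overlap at either age, as for 24.6% of all genes at day 7 and 34.1% at day 9. Some marker gene sums separated the GFP sexes and others overlapped. At day 9 muscle genes summed to between 778 and 996 CPM in GFP males against 1157 to 1327 CPM in GFP females. At day 7 they overlapped, at 659 to 2974 CPM against 1288 to 3423 CPM. Eye genes of day 7 summed to between 6.78 and 8.33 CPM in GFP males against 5.52 to 6.23 CPM in GFP females, and they overlapped at day 9. Hexamerin genes of day 9 summed to between 4809 and 10141 CPM in GFP males against 9977 to 13278 CPM in GFP females, with overlap. At day 7 the hexamerin sums were 484 to 1062 CPM against 720 to 882 CPM, also with overlap. Oskar and nanos summed to between 19.1 and 20.9 CPM in GFP males against 1.94 to 2.98 CPM in GFP females at day 7, and to between 12.4 and 18.5 CPM against 4.26 to 7.40 CPM at day 9. In dsx-labelled males they summed to between 3.97 and 8.75 CPM at day 7 and to between 4.86 and 6.34 CPM at day 9. The part of these differences in the results for Acads was not tested. For Acox3 the sexes overlapped at both ages, with log2 fold changes of -0.14 (SE 0.06) and 0.09 (SE 0.06). In dsx-labelled male larvae, both genes overlapped the GFP males at both ages, with log2 fold changes between -0.16 and 0.11. Of all genes, 5.45% had no overlap in that contrast at day 7 and 7.49% at day 9.

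Embryos had little of either transcript and no sex gap. Acox3 lay between 8.31 and 13.6 CPM over the 10 GFP libraries. Acads lay between 1.99 and 10.3 CPM over the GFP females and between 3.24 and 4.24 CPM over the GFP males, with a log2 fold change of -0.25 (SE 0.31). The 10.3 CPM came from GFP female replicate 3, the library with germ line RNA at 98.1 CPM, and without it the log2 fold change was 0.33. Of all genes, 1.33% had no overlap between the sexes of embryos. The dsx-labelled differences in male embryos were -0.06 for Acox3 and 0.16 for Acads, with overlap, where 0.458% of all genes had none.

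In females, the dsx label came with no called change in either gene at any stage. None of the 14 tests was called by edgeR, and none by DESeq2. Of all genes, edgeR called 0.00809% in female abdomens, 0.017% in thoraces and 0.0412% in heads. It called 0.0496% at day 7, 0.0809% at day 9 and 0% in both pupae and embryos. Both tools had 0 tests at an unadjusted p below 0.05. All 14 comparisons overlapped. Of all genes, 3.74% had no overlap in heads, 3.37% in thoraces, 2.36% in abdomens, 0.968% in pupae, 0.615% at day 9, 1.59% at day 7 and 2.82% in embryos. The log2 fold changes lay between -0.04 and 0.10 outside embryos, with standard errors of at most 0.12. The widest value was that of Acads in embryos, -0.35 (SE 0.31, adjusted p = 0.598 by edgeR). In these fits the male and female groups of a stage share an estimate of the spread. In heads, the SD of Acox3 was 19.1 (GFP) and 29.3 CPM (dsx-labelled) in males, against 0.92 and 2.98 CPM in females. With female head libraries alone, edgeR called 14 genes higher and 20 lower of 11807, with neither Acox3 nor Acads among them. The lowest of the 14 two-sided exact permutation p-values was 0.0238, for Acox3 in heads, where dsx-labelled females read between 52.2 and 59.7 CPM and the log2 fold change was 0.10. The smallest p that 5 against 5 libraries allow is 0.00794. Whether the label effect differed between males and females was not tested, since the male values entered the choice of the genes.

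**Figure D2:**
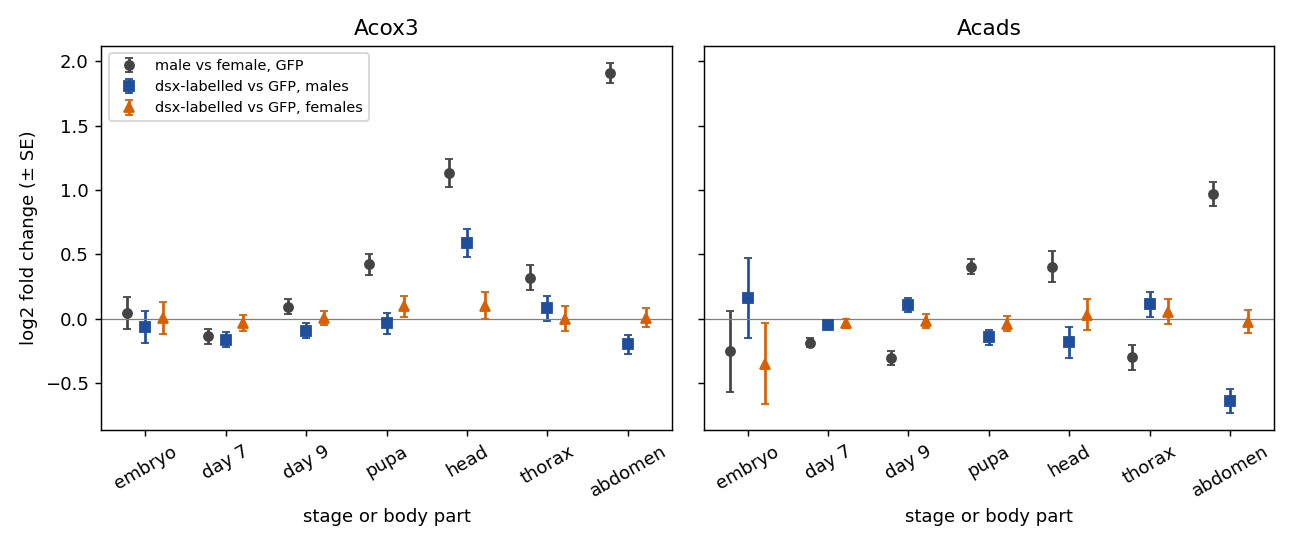
Log2 fold changes of Acox3 (left) and Acads (right) by stage or body part with SE bars, for GFP males over GFP females, dsx-labelled over GFP males and dsx-labelled over GFP females. Outside embryos the female values stay between -0.04 and 0.10, while in males Acox3 reaches 0.59 in heads and Acads -0.64 in abdomens.

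The counts of Acox3 divided by those of Acads in the same library do not depend on how libraries are scaled. The ratio averaged 1.61 ± 0.06 (SD, n = 5) in GFP female heads, 1.69 ± 0.07 in dsx-labelled female heads, 2.73 ± 0.34 in GFP male heads and 4.53 ± 0.69 in dsx-labelled male heads. In abdomens it averaged 0.704 ± 0.069 and 0.717 ± 0.055 in GFP and dsx-labelled females, 1.34 ± 0.05 in GFP males and 1.82 ± 0.12 in dsx-labelled males. In both parts every dsx-labelled male library exceeded every GFP male library, from 3.94 against at most 3.17 in heads and from 1.65 against at most 1.38 in abdomens. Single genes had no overlap in that contrast for 6.23% of all genes in heads and 25.3% in abdomens. The share over gene pairs was not computed. The male values of both genes entered the choice, so the ratio restates them and was not tested. Without the heads set apart, the ratio averaged 2.95 ± 0.22 in 3 GFP and 4.23 ± 0.22 in 4 dsx-labelled male heads. Thoraces separated the sexes but not the labels, at 1.90 ± 0.19 in GFP females, 2.88 ± 0.23 in GFP males and 2.83 ± 0.14 in their dsx-labelled counterparts. The GFP sexes of thoraces did not overlap for 23.2% of single genes. Pupae averaged 1.22 to 1.33 in all groups. At day 9 the ratio averaged 0.473 ± 0.029 in GFP females, 0.623 ± 0.039 in GFP males and 0.542 ± 0.027 in dsx-labelled males. The GFP sexes did not overlap there, as for 34.1% of single genes, while the male groups did. At day 7 those groups averaged 0.722, 0.746 and 0.688. Embryo groups averaged 2.41 to 3.22, with GFP female libraries from 1.00 to 6.81.

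**Figure D3:**
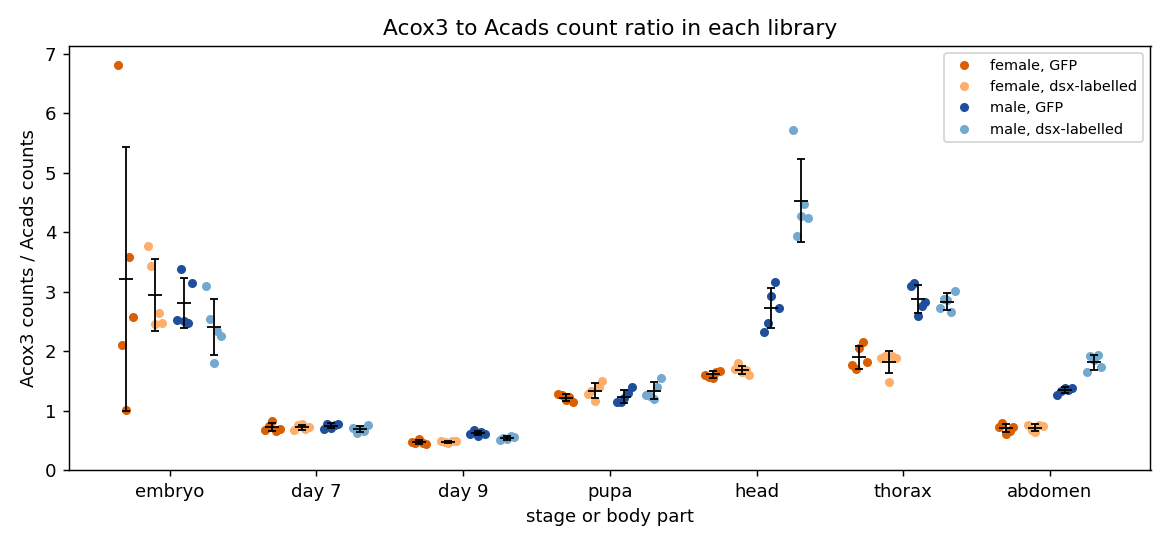
Ratio of Acox3 counts to Acads counts in each library by stage or body part, with the group mean and 1 SD (n = 5). Dsx-labelled male heads lie between 3.94 and 5.72, and all other heads at or below 3.17.

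Both genes overlap others in the RefSeq annotation of assembly Nvit_psr_1.1. Acox3, on chromosome 2 with 7 annotated transcripts, overlaps LOC100122558, LOC100114454 and LOC103316660. Acads, on chromosome 3 with 1 transcript, overlaps LOC100118122. The sources used here do not say how reads in shared stretches were counted, so counts of these genes are uncertain there. Of the neighbours of Acox3, LOC100114454 averaged 1.31 CPM in GFP and 4.71 CPM in dsx-labelled male heads, and rose by 1.84 on the log2 scale (SE 0.19, adjusted p = 1.95e-06). LOC103316660 averaged 1.63 and 4.05 CPM and rose by 1.31 on the log2 scale (SE 0.23, adjusted p = 0.000944). LOC100122558 averaged 134 and 117 CPM in those heads, with a log2 fold change of -0.19 and an adjusted p of 0.424. Without the 3 heads set apart, the log2 fold changes were 1.66 for LOC100114454, 1.11 for LOC103316660 and -0.21 for LOC100122558, and edgeR called all 3 (adjusted p = 0.027 for the last). In abdomens LOC100118122 averaged 183 CPM in GFP and 195 CPM in dsx-labelled males, with an adjusted p of 0.0974.

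Electrons from acyl-CoA dehydrogenases enter the respiratory chain, whose 64 genes with a recognisable symbol were counted in all 3 contrasts at all 7 stages. This list was drawn up from gene symbols after the planned pathway lists had found no gene besides Acox3 and Acads, and its counts were seen at once, so it supports nothing on its own. In male abdomens with the dsx label, 45 of 64 genes rose and 0 fell, where 21.7% of all genes rose. All 13 genes of complex V, the ATP synthase, and all 8 of complex III were among them. The median log2 fold change was 0.22 over the list and 0.02 over all genes. Atp5i, an ATP synthase subunit, averaged 130 ± 14.3 CPM in GFP and 175 ± 14.1 CPM in dsx-labelled males (SD, n = 5), a rise of 0.43 on the log2 scale (SE 0.08, adjusted p = 0.000293). The count was 21 without dsx-labelled male replicate 1 and 30 without GFP male replicate 2. It was 35 with RLE size factors and 35 with DESeq2. Over all genes, 2261 rose and 2633 fell with RLE size factors, against 2680 and 2177 in the main fit. In the same abdomens Acads was lower.

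In GFP abdomens, 27 of 64 chain genes were higher and 17 lower in males, where 86.8% of all genes were called. Complex V held 10 of the lower ones and none of the higher ones, and Atp5a1 averaged 879 ± 56.1 CPM in males against 1887 ± 66.8 CPM in females (log2 fold change -1.10, SE 0.08, adjusted p = 5.36e-11). Uqcrq of complex III averaged 223 ± 18.7 CPM in males against 135 ± 6.51 CPM in females (log2 fold change 0.73, SE 0.06, adjusted p = 8.07e-10). In pupae, 62 of 64 were lower and 2 higher in males, with a median log2 fold change of -1.01 against 0.00 over all genes, where 32.2% of all genes were lower and 63.8% were called in either direction. The 2 higher genes, named after their values were seen, were the complex IV genes Cox6c, at 9.11 CPM in males and 0 in all 5 females, and Cox7a1, with male and female means of 20.6 and 0.0104 CPM. Acox3 and Acads were higher in those males. The muscle, hexamerin and eye gene differences of pupae given above moved with the sex here too, and their part in this count was not tested.

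In heads, 34 of 63 tested chain genes were higher in GFP males and 0 lower, where 17.8% of all genes were higher and 33.8% called in either direction, and SdhD of complex II had the largest change (log2 fold change 0.47, SE 0.09, adjusted p = 0.00065; 0.51 without the 3 heads) of those reaching 10 CPM. The count was 47 without the 3 male heads set apart, 18 without GFP female replicate 4, 19 without GFP male replicate 4 and 22 without GFP female replicate 2. With the dsx label, 2 of 63 rose in male heads, where 3.97% of all genes rose. Atp5e (0.40), named after its values were seen, was one and Uqcr10 the other (log2 fold change 0.54, SE 0.14, adjusted p = 0.0204). Without the 3 heads the value for Uqcr10 was 0.37 (adjusted p = 0.0975) and no chain gene was called. In thoraces, 4 of 62 were higher in GFP males, where 17.6% of all genes were higher and 37.1% called in either direction, namely Ndufs1 of complex I (log2 fold change 0.53, SE 0.11, adjusted p = 0.000717) and, named after their values were seen, Ndufa7, Ndufv1 and SdhB. The count was 2 without GFP female replicate 2, 4 or 5 or GFP male replicate 3 or 4, 7 without GFP male replicate 1 and 8 without GFP male replicate 5.

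In larvae, 6 of 64 were higher and 4 lower in GFP males of day 7, where 35.2% of all genes were called, and 3 were higher and 15 lower at day 9, where 49.1% were. Named after their values were seen, the 3 higher genes of day 9 were Cox6c (30.6 CPM in males and 0 in all females), Cox7a1 and SdhC. At day 7 the count of 10 was 6 without GFP female replicate 2 or GFP male replicate 1, 3 or 4. At day 9 the count of 18 was 28 without GFP female replicate 1, 11 without GFP female replicate 4 or 5 and 7 without GFP male replicate 2. With the dsx label, 1 gene fell in males at each age, Uqcrb at day 7 and Cox6c at day 9, where 1.67% and 2% of all genes fell and 4.1% and 3.41% were called in either direction. No chain gene was called by edgeR in embryos in either contrast, with 1 of 62 at an unadjusted p below 0.05 in each and none called by DESeq2. Of all genes, edgeR called 0.0417% between the sexes of embryos and 0% with the label in male embryos. The male label contrast likewise gave no call in pupae, where 1.06% of all genes were called, with 0 at an unadjusted p below 0.05 and 0 by DESeq2, or in thoraces, where 26.9% of all genes were called, with 1 and 0. In females the dsx label gave no call by edgeR at any stage, with between 0 and 35 genes (abdomens) passing an unadjusted threshold of 0.05. DESeq2 called 2 in embryos and 0 elsewhere. Of all genes in female abdomens, 1139 of 12356 passed the unadjusted threshold. There the median log2 fold change was 0.12 over the list and 0.00 over all genes. The medians over the list were -0.09 in female heads and -0.14 in female thoraces.

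**Figure D4:**
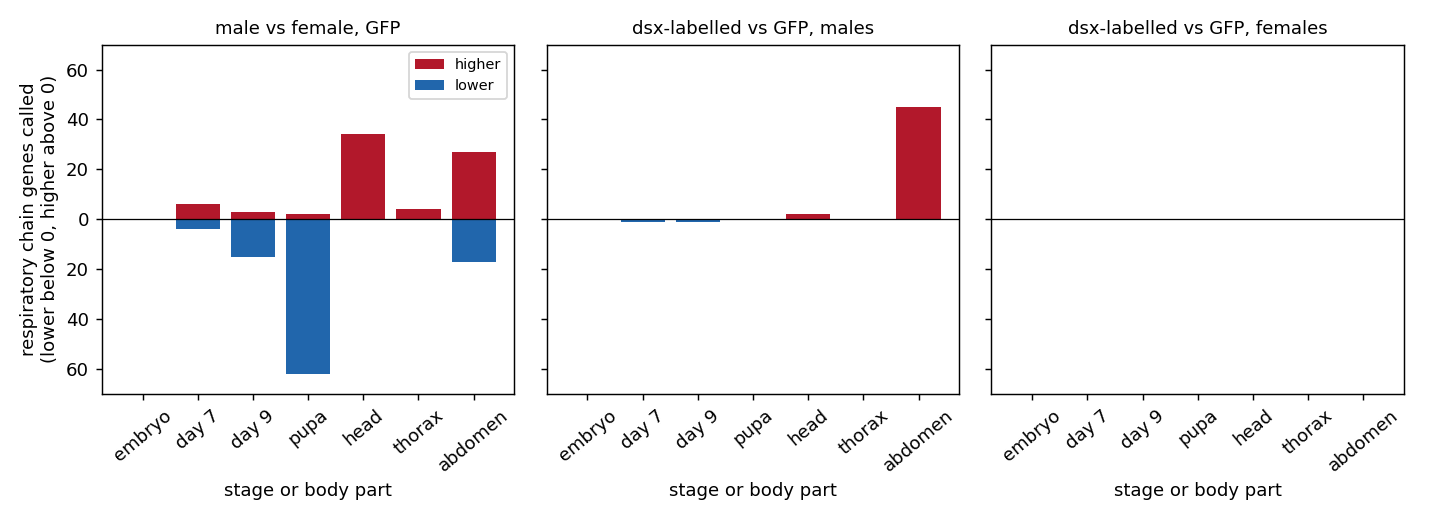
Number of respiratory chain genes called by edgeR as higher (above 0) or lower (below 0) by stage or body part, for GFP males over GFP females, dsx-labelled over GFP males and dsx-labelled over GFP females. The male label contrast holds 45 higher genes in abdomens and at most 2 called genes elsewhere, and the female panel holds none.

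A second list, drawn up in the same way, held 6 genes of lipid handling. In GFP abdomens all 6 were higher in males, where 42.7% of all genes were. Akhr, the receptor of the adipokinetic hormone that mobilises stored fat, averaged 170 ± 11.1 CPM in males against 11.6 ± 1.49 CPM in females (log2 fold change 3.87, SE 0.14, adjusted p = 5.03e-16). CYP4G43 and CYP4G44, of the cytochrome P450 subfamily that makes cuticular hydrocarbons in Drosophila, had log2 fold changes of 3.65 and 3.50. Slc25a1, the mitochondrial citrate carrier, had 2.46, Lsd2, a lipid droplet protein, 1.61, and Adipor1, an adiponectin receptor homologue, 1.19.

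With the dsx label, Akhr fell in male abdomens, and its calls in heads and thoraces depended on single libraries. It averaged 106 ± 18.0 CPM in dsx-labelled male abdomens (log2 fold change -0.68, SE 0.12, adjusted p = 0.000141), and this call held in all 14 alternative fits. In heads its log2 fold change was -0.52 (SE 0.14, adjusted p = 0.0186) with all libraries and -0.20 (SE 0.09, adjusted p = 0.152) without the 3 heads set apart. The call was also lost without any one of dsx-labelled replicates 2 and 3 and GFP replicates 1 and 2. In thoraces it was -0.40 (SE 0.12, adjusted p = 0.0189), lost without any one of dsx-labelled replicates 1, 2 and 3 and GFP replicate 5. In abdomens 1 of 6 genes fell and 1 rose, where 39.3% of all genes were called. The one that rose was Adipor1 (log2 fold change 0.19, SE 0.06, adjusted p = 0.0133), a call lost with RLE size factors, with DESeq2 and without any one of 4 libraries.

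Slc25a1 rose with the dsx label in male heads (log2 fold change 0.40, SE 0.10, adjusted p = 0.0187) and thoraces (0.72, SE 0.13, adjusted p = 0.000843), where GFP males were below GFP females by -0.75 and -1.18. In heads the call was lost without GFP male replicate 3 or 5, and without the 3 heads set apart the values there were 0.45 for the label and -0.90 for the sex difference. Without those heads Lsd2 was also called, at 0.58 for the label (adjusted p = 3.36e-05) and -0.78 for the sex difference (adjusted p = 2.29e-07), against 0.06 and -0.17 with all libraries. Of the 6 genes, 1 (Adipor1) was higher and 1 lower in GFP male heads, where 33.8% of all genes were called. The log2 fold change of Adipor1 was 0.37 with all libraries and 0.17 without the 3 heads set apart, and its call was lost without any one of 6 libraries. With the label in male heads, 1 rose and 1 fell. In GFP male thoraces 1 was higher and 3 were lower than in females, where 37.1% of all genes were called, and the call of CYP4G44, one of the 3, was lost without any one of 6 libraries. With the label in male thoraces 3 rose and 1 fell. Calls were made for 8.92% of all genes with the label in male heads and for 26.9% in male thoraces. Leaving out any one of dsx-labelled male thoraces 1, 2 and 3 or GFP male thorax 5 left 2 of those 4.

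Before adulthood, the sex difference called 0 of the 6 in embryos (0 by DESeq2 and 0 at an unadjusted p below 0.05), 2 (both lower in males) at day 7, 6 (4 higher, 2 lower) at day 9 and 5 (1 higher, 4 lower) in pupae. Of all genes, 0.0417% were called in embryos, 35.2% at day 7, 49.1% at day 9 and 63.8% in pupae. The male label called none at those 4 stages by edgeR, with 0 to 2 genes at an unadjusted p below 0.05 and 1 gene by DESeq2 at day 9. The female label called none at any of the 7 stages, with 0 to 3 genes at an unadjusted p below 0.05 and 1 gene by DESeq2 in embryos.

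**Figure D5:**
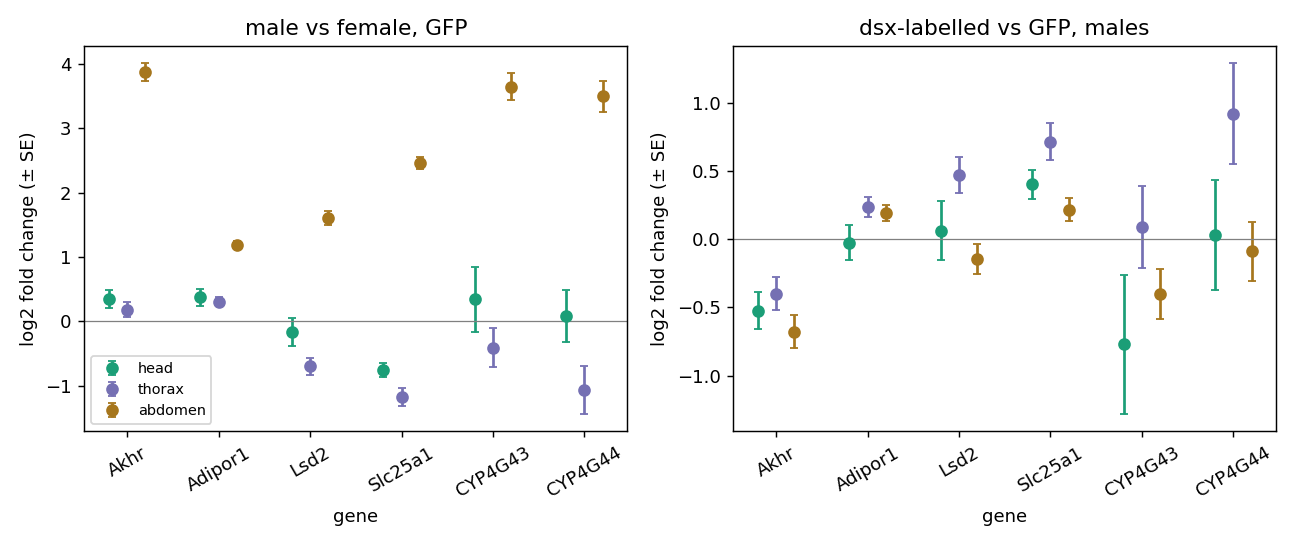
Log2 fold changes with SE bars of 6 lipid genes in adult heads, thoraces and abdomens, for GFP males over GFP females (left) and dsx-labelled over GFP males (right). All 6 abdominal values lie between 1.19 and 3.87 on the left, and Akhr lies between -0.68 and -0.40 on the right.

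Over the means of the 28 groups, Acox3 and Acads had a Pearson r of 0.76 on the scale of log2(CPM + 0.1), which was -0.12 over the 24 groups without embryos. That second value was added after the first had been seen. Among 10503 genes with at least 10 CPM in their highest group, the pattern of Acox3 was most like those of LOC100120308 (r = 0.96), LOC100115937, LOC100122896, LOC100124029 and LOC100123260, with r from 0.82 to 0.88 without embryos. LOC100120308 was highest in GFP male abdomens at 126 CPM and next in GFP male heads at 74.7 CPM. The pattern of Acads was most like those of LOC100122761 (r = 0.97), LOC100122052, LOC100118424, LOC100120343 and LOC100678496, with r from 0.73 to 0.88 without embryos. LOC100122761 was highest in dsx-labelled female abdomens at 21.9 CPM, and LOC100122052 in GFP females of day 9 at 205 CPM. LOC100118424 was highest in GFP male abdomens at 66.8 CPM and next in dsx-labelled male abdomens at 50.3 CPM. LOC100120343 was highest in GFP male abdomens at 51.2 CPM, and LOC100678496 in dsx-labelled male abdomens at 20.5 CPM. The 28 groups share the low embryo values and the scaling.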

How the data were processed

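Libraries of total RNA (NEBNext Ultra RNA kit) were read as pairs of 150 bp, per the labels' protocols. The authors deposited whole-number read counts per gene, not normalized, for 140 libraries, and 0 columns were left unused. HISAT2 2.0.5 and HTSeq 0.6.1 are named, without a role, in the submitters' processing notes. The sources used here give neither the genome build nor the use of strand. Groups came from the labels. Of 280 replicate pairs, the lowest chi-square per gene was 19.3, above sampling noise.

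Each stage was fitted on its own (20 libraries, a mean per group) in edgeR 4.0.16 with TMM scaling, filterByExpr at a minimum count of 10, the quasi-likelihood test and Benjamini-Hochberg adjustment over all genes tested. Fold changes use a prior count of 0.125. CPM was computed here from the TMM factors, and the scale common to all libraries uses TMM over all 140. The two-sided exact permutation test used log2(CPM + 0.01). DESeq2 1.42.0, RLE factors, no filter, a replicate block, female libraries only and leaving out each library were alternatives. The fits were tested on simulated data.

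Acox3, Acads and all lists were chosen with earlier results of these data known. The planned oxidation and synthesis lists matched no symbol except Acox3 and Acads, and the planned marker list matched only oskar. The respiratory chain, lipid and marker lists were therefore drawn up by symbol after the counts could be read, and first results for them at every stage were seen before their report was laid out. Named chain genes are those with the largest change in each direction in adult parts, at 10 CPM or more in the higher group, and all 6 lipid genes are named. The planned search for a promoter motif was not run.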

Additional observations from a re-analysis of the deposited data

Results flagged for a closer look

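In 3 of the 56 sets of 5 libraries checked for Acox3 and Acads, 1 library lay far from the other 4, where chance flags about 1 in 20. All 3 were for Acads. GFP female embryo replicate 3 read 10.3 CPM against at most 3.94 CPM in the others, and it is the library in which germ line genes reached 98.1 CPM. One GFP female library of day 7 read 94.6 CPM against at most 88.7 CPM. One dsx-labelled male library of day 9 read 80.5 CPM against at least 83.3 CPM.

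The sex difference of Acads in GFP controls pointed in opposite directions with no overlap between the sexes. Every male lay below every female at day 7 (log2 fold change -0.18) and day 9 (-0.31), and every male lay above every female in pupae (0.40) and abdomens (0.97). Gaps between the sexes in either direction were common, at 24.6% of all genes at day 7, 34.1% at day 9, 49.1% in pupae and 78.6% in abdomens. The difference between stages was not tested, since these values entered the choice of the gene.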

How the results depend on the processing

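Of the 28 descriptive differences of Acox3 and Acads, those of Acads in heads moved by more than the spread between replicates without the 3 male heads set apart, to 0.0946 (sex) and 0.126 (male label). The same setting left 0 chain genes called with the label in male heads. Leaving out single libraries moved the male label difference of Acads at day 9 beyond that spread, over a range of 0.0526 to 0.127. The cause was not tested for any change given here.

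Tests of the dsx label in females made no call under any alternative. Their values near 0 changed sign. For Acox3 in thoraces the log2 fold change was -0.00303 with RLE size factors, -0.00146 with no filter and -0.0029 with DESeq2. Leaving out single libraries gave ranges for Acox3 of -0.0437 to 0.14 in embryos, -0.0534 to 0.0169 at day 7, -0.0385 to 0.0419 at day 9, -0.0415 to 0.0513 in thoraces and -0.0149 to 0.0329 in abdomens. For Acads they were -0.536 to 0.23 in embryos, -0.0557 to 0.0452 at day 9, -0.0661 to 0.0134 in pupae, -0.00505 to 0.114 in thoraces and -0.0815 to 0.0275 in abdomens. The upper end in embryos is the value without GFP female replicate 3.

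At each stage 9 to 14 of 30 same-numbered pairs of libraries had a correlation over 0.1. The median per stage lay between -0.07 (embryos) and 0.05 (heads). Pairs with different numbers were not computed, so whether replicate numbers pair the samples cannot be judged from these values. With the replicate block, Acox3 in female thoraces was at -0.00388. The block left 0 chain genes called with the label in males at day 9, 1 with the label in male heads, and 1 lipid gene called between the sexes at day 7.

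Counts of calls in the added lists moved by more than 1.5 times as follows. DESeq2 called 2 chain genes and 1 lipid gene with the label in female embryos, 3 chain genes with the label in males at day 7 and 1 lipid gene with the label in males at day 9. With no filter, 1 chain gene was called with the label in male heads and 1 lipid gene between the sexes at day 7. With RLE size factors, 1 lipid gene was called with the label in male abdomens. Leaving out single libraries gave chain counts between the sexes of 6 to 13 at day 7, 7 to 28 at day 9, 18 to 38 in heads and 2 to 8 in thoraces. With the label in males they were 0 to 7 at day 7, 0 to 1 at day 9, 0 to 3 in heads, 0 to 1 in thoraces and 21 to 48 in abdomens. Lipid counts were 1 to 2 at day 7 and 1 to 3 in heads between the sexes, and 1 to 2 in heads, 2 to 5 in thoraces and 1 to 3 in abdomens with the label in males. With CPM by total counts, 2 of the 5 genes with a pattern most like Acads were shared.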
